A study of Mus musculus with 6 samples.

Results

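Hox genes encode homeodomain transcription factors that sit in 4 clusters, Hoxa, Hoxb, Hoxc and Hoxd, and are numbered along each cluster from paralogue 1 to paralogue 13. In the embryo the low numbers are switched on earlier and nearer the head, and the high numbers later and nearer the tail, so that the Hox genes a cell uses record where along the body axis it arose. The cells that build the skull vault come from cranial neural crest and head mesoderm in front of the Hox domain, whereas bone marrow blood precursors use several Hox genes, above all of the Hoxa cluster. A gene was taken as a member where the array carries a feature named for exactly 1 symbol made of Hox, a cluster letter and a number. This gave 37 genes of the 19938 genes tested. There were 10 genes of the Hoxa cluster and 9 of each of the other clusters, with 1 feature each. Hoxb8 lies on a feature shared with Hoxb7 that was left out. That shared feature had log2 values of 1.18, 1.24 and 1.997 in Axin2+/GFP+ cells and of 1.10, 1.76 and 1.29 in Axin2-/GFP- cells.

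RNA was measured on 1 array for each of 6 samples, 3 of Axin2+/GFP+ cells and 3 of Axin2-/GFP- cells, all from calvarial suture mesenchyme at postnatal day 28. All mice carried the Axin2rtTA and TRE-H2BGFP transgenes on a mixed C57BL/6J, CD-1 and B6CBAF2 background and received doxycycline from day 25 to day 28, which switches on a histone-GFP fusion in cells that use the Axin2 promoter. Each sample held cells of 6 to 8 mice, freed with 0.2% collagenase and separated by their GFP signal, and the labels call the samples of a population biological replicates. The methods describe tissue of the sagittal suture and mention no antibody to set blood cells apart. Values are log2 intensities, 1 unit being a doubling, and a change is the mean in Axin2+/GFP+ cells minus the mean in Axin2-/GFP- cells, tested with limma and adjusted by the Benjamini-Hochberg method over all 19938 genes. Precision is limited by the number of arrays, and in bulk samples such as these fewer cells of a type and less RNA per cell cannot be told apart.

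The 2 sorts also differed in blood cell genes. Of all genes tested, 4.64% were higher and 11.4% lower in Axin2+/GFP+ cells at a limma adjusted p under 0.05. All 12 measured B lineage genes were lower in Axin2+/GFP+ cells, with a median log2 change of -4.40, and their summed log2 level was 6.57 to 6.69 there against 10.8 to 11.2 in Axin2-/GFP- cells. Of 15 neutrophil genes, 13 were higher in Axin2+/GFP+ cells, with a median log2 change of 2.08 and a summed log2 level of 14.4 to 14.5 against 11.6 to 13.3. Of 10 genes of suture mesenchyme, 3 passed the test, the collagen genes Col1a1, Col1a2 and Col3a1, all higher in Axin2+/GFP+ cells. Above the background level defined below lay 8 of the 10 in all Axin2+/GFP+ samples and 7 in all Axin2-/GFP- samples. Of 8 blood progenitor genes, Gata2 was higher and Myb lower in Axin2+/GFP+ cells, with log2 changes of 1.15 and -2.73. The part of these cell types in the Hox values was not tested.

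Promoters of 3 Hox genes and 5 mature miRNAs of the clusters are shown here because the results return to them. The promoter windows run from 250 bases before to 50 bases after the gene's start in RefSeq on GRCm38.p6, and belong to Hoxb1 (chr11:96365508-96365807, plus strand), which was among the brightest Hox genes in both sorts, and to Hoxc4 (chr15:103034145-103034444, plus strand) and Hoxa13 (chr6:52260831-52261130, minus strand), which had the largest log2 changes among the 37. Capitals mark a match to TGATNNAT, letters that Pbx and Hox proteins are known to bind as a pair, searched on both strands.
Hoxb1: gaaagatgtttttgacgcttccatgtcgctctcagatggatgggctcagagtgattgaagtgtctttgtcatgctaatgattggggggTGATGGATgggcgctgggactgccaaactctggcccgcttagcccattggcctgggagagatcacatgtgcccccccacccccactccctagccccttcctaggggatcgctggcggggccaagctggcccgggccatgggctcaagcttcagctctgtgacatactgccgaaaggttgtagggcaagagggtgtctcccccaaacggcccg
Hoxc4: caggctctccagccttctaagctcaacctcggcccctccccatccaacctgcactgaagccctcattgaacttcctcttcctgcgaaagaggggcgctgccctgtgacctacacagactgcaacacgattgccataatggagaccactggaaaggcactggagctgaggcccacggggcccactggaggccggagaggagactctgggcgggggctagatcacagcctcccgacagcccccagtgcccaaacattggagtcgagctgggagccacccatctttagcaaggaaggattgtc
Hoxa13: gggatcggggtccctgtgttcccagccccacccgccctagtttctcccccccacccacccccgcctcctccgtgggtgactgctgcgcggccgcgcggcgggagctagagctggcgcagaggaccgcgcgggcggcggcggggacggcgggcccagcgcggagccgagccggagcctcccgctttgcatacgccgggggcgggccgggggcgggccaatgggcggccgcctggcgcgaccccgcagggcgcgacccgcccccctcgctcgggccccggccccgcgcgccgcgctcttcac
The Hoxb1 window holds 1 match and the other windows none. None of the 3 windows holds the homeodomain core TAATTA on either strand, and the TATA box letters TATAAA were not found in them. Promoters were at hand for 21 Hox genes, 23 promoters in all. TGATNNAT was found in 3 of the 23 (Hoxa2, Hoxb1 and Hoxd11), against 8.85% of all 32851 promoters of this length. TAATTA was found in 2 of the 23 (both of Hoxd11) against 5.29%, and TATAAA in 3 (Hoxa10, Hoxd4 and Hoxd13) against 13.6%. G and C made up 81.0% of the Hoxa13 window, which holds 45 CpG pairs, 60.3% of the Hoxc4 window with 9 pairs, and 59.3% of the Hoxb1 window with 10 pairs. The median over 23 Hox promoters was 58.0% with 15 CpG pairs, and over all promoters 52.7% with 7. A match describes the letters and not the binding of a factor.

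The miRNA genes Mir10a, Mir10b, Mir196a-1, Mir196a-2, Mir196b and Mir615 lie inside the Hox clusters. Their main mature forms are given 5′ to 3′ as in RefSeq, with the seed, bases 2 to 8, in capitals.
miR-10a-5p: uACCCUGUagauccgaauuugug
miR-10b-5p: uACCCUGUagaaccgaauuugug
miR-196a-5p: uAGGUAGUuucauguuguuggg
miR-196b-5p: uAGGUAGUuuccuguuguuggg
miR-615-3p: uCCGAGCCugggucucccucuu
miR-10a and miR-10b share a seed and differ by U12A, counted from the 5′ end. miR-196a, which both Mir196a-1 and Mir196a-2 encode, and miR-196b share another seed and differ by A12C, and miR-615 has a seed of its own.

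Most Hox genes did not pass a background level set by genes that suture cells are not thought to use. The 1015 olfactory receptor genes on the array, which encode the odorant receptors of the nose, served as that background, and a gene was counted as above it in a sample when its value exceeded the 95th percentile of the receptor genes on the same array. That level was 3.14 to 3.33 in Axin2+/GFP+ samples and 2.78 to 2.85 in Axin2-/GFP- samples. Above it in all 3 samples were 3 of the 37 Hox genes in Axin2+/GFP+ cells, against 27.8% of all genes tested, and 5 in Axin2-/GFP- cells, against 42.0%. The rule passed 1.67% and 2.27% of the receptor genes themselves. Features differ in how well their probes bind, so a value beside the receptor genes is not an amount of RNA.

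Hoxa4, Hoxb1 and Hoxb7 were above the background level in every sample of both sorts. Hoxa4, a factor of the neck and upper trunk, had log2 values of 3.90, 4.28 and 3.96 in Axin2+/GFP+ cells and of 3.56, 3.79 and 3.41 in Axin2-/GFP- cells. Hoxb1, known for setting the identity of a hindbrain segment, had values of 4.05, 4.22 and 3.83 against 3.57, 3.48 and 3.67. Hoxb7, a trunk gene, had values of 3.89, 4.13 and 3.87 against 3.32, 3.43 and 3.38. In each of these genes the 3 Axin2+/GFP+ samples were higher than the 3 Axin2-/GFP- samples. The left-out feature named for both Hoxb7 and Hoxb8 was under the background level in every sample. In both sorts 0.887% of the receptor genes had a mean at least as high as that of Hoxa4 or Hoxb1, and for Hoxb7 the shares were 0.887% and 1.28%.

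Hoxa6 and Hoxc6, both trunk genes, were above the level in all 3 Axin2-/GFP- samples and not in all Axin2+/GFP+ samples, although their values were no lower there on average. Hoxa6 had log2 values of 2.999, 3.24 and 3.36 in Axin2+/GFP+ cells and 2.95, 3.07 and 2.97 in Axin2-/GFP- cells. Hoxc6 had 3.22, 3.39 and 2.97 against 3.12, 2.88 and 3.11. The groups overlapped in both genes, and it was the background level that was higher in Axin2+/GFP+ samples. A further 6 genes passed the level in some samples but never in all 3 of a sort: Hoxa7, Hoxb3, Hoxb9, Hoxc4, Hoxd10 and Hoxd11. The other 26, among them Hoxa2, Hoxa3, Hoxa5, Hoxa9, Hoxa10, Hoxa11 and Hoxa13, did not pass it in any sample. No Hox gene exceeded the 99th percentile of the receptor genes in all 3 samples of either sort. By group means instead of single samples, 10 Hox genes passed in Axin2+/GFP+ cells (Hoxa4, Hoxa6, Hoxa7, Hoxb1, Hoxb3, Hoxb7, Hoxb9, Hoxc4, Hoxc6 and Hoxd11) against 40.8% of all genes, and 6 in Axin2-/GFP- cells against 48.8%. Without Axin2+/GFP+ replicate 1 or 2 the number above the level in all remaining Axin2+/GFP+ samples was 5.

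**Figure D1:**
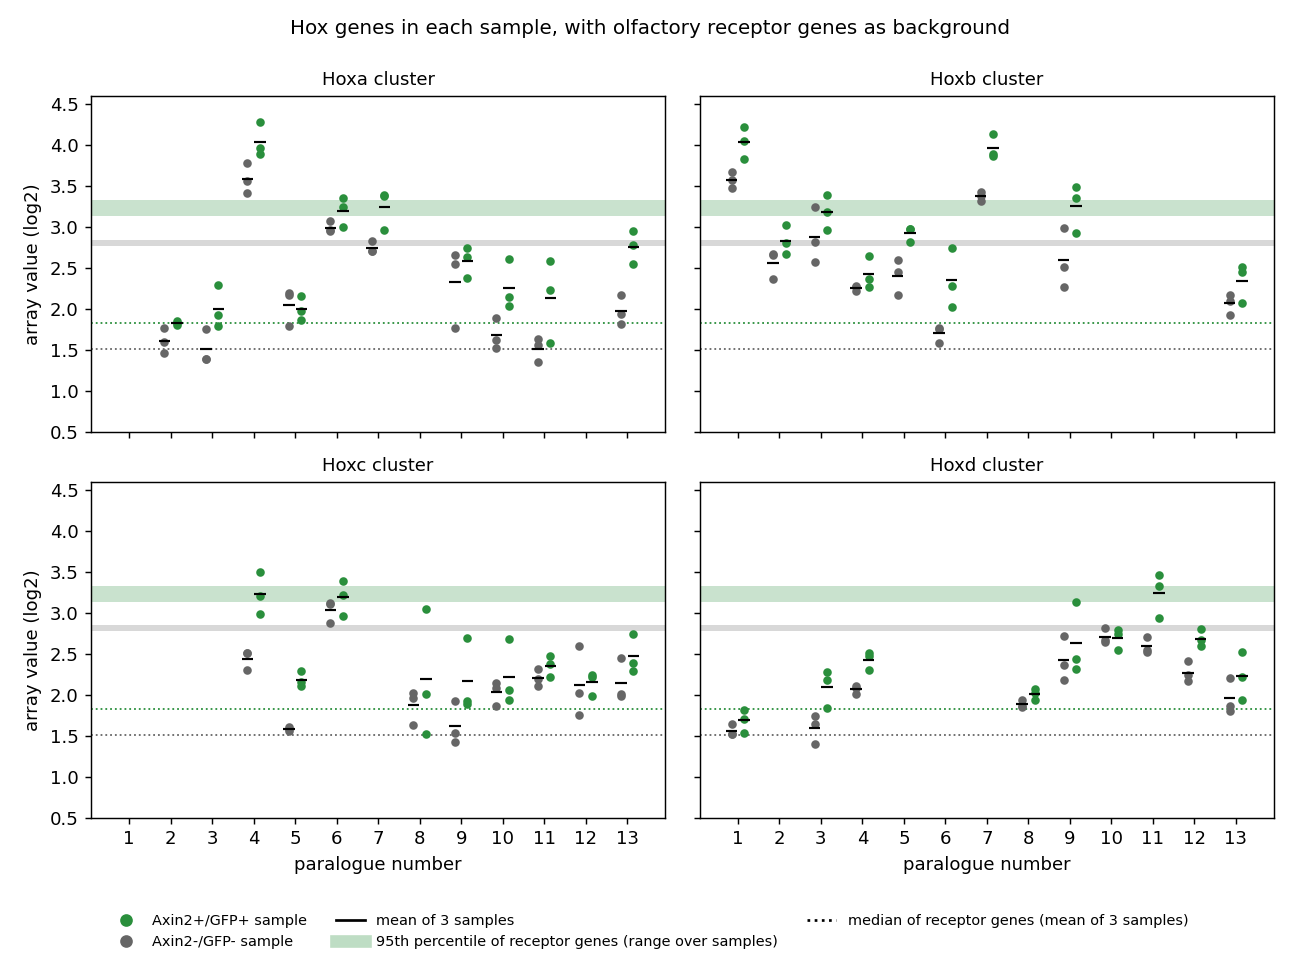
The log2 value of each Hox gene in every sample is plotted against its paralogue number, 1 panel per cluster, with green points for Axin2+/GFP+, grey points for Axin2-/GFP- and short black lines for the mean of 3 samples. The green and grey bands span the 95th percentile of the olfactory receptor genes over the samples of each sort and the dotted lines give their median, and only Hoxa4, Hoxb1 and Hoxb7 lie above the band of their own sort in every sample.

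The Hox genes were not spread evenly around the receptor genes. The median of the 37 was 2.45, 2.61 and 2.55 in samples of Axin2+/GFP+ cells, against 2.18, 2.27 and 2.17 in those of Axin2-/GFP- cells. The median of the receptor genes was 1.87, 1.81 and 1.79 against 1.53, 1.53 and 1.48. The median of all genes tested was above both, at 2.81 to 2.86 against 2.72 to 2.74. In each sort 35 of the 37 Hox genes had a mean above the receptor median, the exceptions being Hoxa2 and Hoxd1 in Axin2+/GFP+ cells and Hoxa3 and Hoxa11 in Axin2-/GFP- cells.

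Level did not order along the clusters. By cluster, the median log2 level in Axin2+/GFP+ cells was 2.43 for Hoxa, 2.92 for Hoxb, 2.22 for Hoxc and 2.43 for Hoxd, and in Axin2-/GFP- cells 2.02, 2.56, 2.13 and 2.07. Hoxb therefore had the highest median in both sorts, and no Hoxd gene was above the background level in all 3 samples of a sort. By position, the 7 genes of paralogues 1 to 3 had medians of 2.10 and 1.61, the 14 genes of paralogues 4 to 8 had 2.68 and 2.33, and the 16 genes of paralogues 9 to 13 had 2.42 and 2.14. Above the level in all Axin2-/GFP- samples were 1 anterior gene, 4 central genes and none of the posterior genes, and in all Axin2+/GFP+ samples 1, 2 and none. Across the 37 genes Spearman's rho between paralogue number and level was -0.0025 in Axin2+/GFP+ cells and -0.06 in Axin2-/GFP- cells. The levels of the 37 genes in both sorts had a Pearson's r of 0.93 across genes. These coefficients describe genes read on the same arrays by probes of unequal binding, and genes are not replicates.

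Between the sorts, 4 of the 37 Hox genes passed an adjusted p of 0.05 in limma, all higher in Axin2+/GFP+ cells. This is 10.8% of the Hox genes, against 4.64% of all genes tested and 5.02% of the receptor genes called higher. None was lower, where 11.4% of all genes were called, and none was lower at an unadjusted p under 0.05 by limma (17.6% of all genes) or by the methods' t-test (2747 of 19938 genes). At an unadjusted p under 0.05 limma called 16 Hox genes higher, against 16.3% of all genes, and the methods' t-test 15, against 14.8%. Of the 1015 receptor genes these tests called 216 and 178 higher. In 18 Hox genes all Axin2+/GFP+ samples exceeded all Axin2-/GFP- samples, against 23.1% of all genes. In none did the reverse hold, against 17.8% of all genes. Among the 1015 receptor genes 309 were separate and higher, and 2 separate and lower.

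Hoxc4, a factor of the neck and upper trunk, had log2 values of 3.50, 2.99 and 3.21 in Axin2+/GFP+ cells and of 2.51, 2.31 and 2.51 in Axin2-/GFP- cells. This is a log2 change of 0.79 (SE 0.19, limma adjusted p = 0.0247), or 1.73-fold. It was above the background level in 2 of the 3 Axin2+/GFP+ samples and in none of the Axin2-/GFP- samples, and a change of this size or more was seen in 4.83% of the receptor genes. Hoxa13, a gene of the distal limb and the urogenital end of the body, had values of 2.96, 2.78 and 2.55 against 2.18, 1.94 and 1.82, which is a log2 change of 0.78 (SE 0.19, limma adjusted p = 0.0244). Its groups did not overlap, but it stayed under the background level in every sample, and 5.22% of the receptor genes changed at least as much.

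Hoxc5, the neighbour of Hoxc4, had log2 values of 2.16, 2.29 and 2.11 in Axin2+/GFP+ cells and of 1.61, 1.56 and 1.58 in Axin2-/GFP- cells. It changed by 0.60 on the log2 scale (SE 0.16, limma adjusted p = 0.0349). All 6 values were below the background level, and 30.2% of the receptor genes had a mean at least as high in Axin2+/GFP+ cells. Hoxb7 rose by a log2 change of 0.59 (SE 0.16, limma adjusted p = 0.0441), from a mean of 3.38 ± 0.06 (SD, n = 3) to 3.96 ± 0.15 (SD, n = 3). It was the only one of the 4 called genes above the background level in all samples. A change of that size or more was found in 13.1% of the receptor genes for Hoxc5 and in 14.1% for Hoxb7.

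These calls lay close to the threshold, and most ended when a sample was left out, although the changes stayed of similar size. Over the 6 fits that left out 1 sample, the log2 change ran from 0.66 to 0.91 for Hoxc4, from 0.69 to 0.89 for Hoxa13, from 0.55 to 0.64 for Hoxc5 and from 0.50 to 0.64 for Hoxb7. Without Axin2+/GFP+ replicate 1 all 4 ended (limma adjusted p = 0.0523 for Hoxc4, 0.0550 for Hoxa13, 0.0523 for Hoxc5 and 0.0573 for Hoxb7) and Hoxb6 was called instead, with a log2 change of 0.82. Without Axin2+/GFP+ replicate 2 only Hoxc4 of the 4 was called, beside Hoxd11 with a log2 change of 0.80. Without Axin2+/GFP+ replicate 3 only the call of Hoxb7 ended, and Hoxa11 was called with a log2 change of 0.90. Without Axin2-/GFP- replicate 1 only Hoxa13 was called, and without Axin2-/GFP- replicate 2 or 3 no Hox gene was, the adjusted p of the 4 genes then lying between 0.0695 and 0.125.

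Just outside the threshold, Hoxd11, a gene of the forearm and lower trunk, had log2 values of 3.33, 2.94 and 3.47 in Axin2+/GFP+ cells and 2.55, 2.53 and 2.71 in Axin2-/GFP- cells. Its log2 change was 0.65, with a limma adjusted p of 0.0513. The 33 genes that did not pass had log2 changes from -0.06 to 0.66, the highest being Hoxb9. The 95% intervals of the 37 changes reached 0.35 to 0.80 to each side, with a median of 0.42, and included 0 for 21 genes. Of the genes above the background level in all 3 samples of a sort, Hoxa4 and Hoxb1 had log2 changes of 0.46 each (limma adjusted p = 0.125 and 0.104), Hoxa6 of 0.20 (adjusted p = 0.410) and Hoxc6 of 0.15 (adjusted p = 0.558). Hoxa9, a gene used by blood precursors, had values of 2.64, 2.74 and 2.38 against 1.76, 2.56 and 2.66, which overlap, with a log2 change of 0.26 and an interval from -0.32 to 0.84.

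The groups were separate in 18 Hox genes, the 4 called genes among them, and most of the 18 did not pass the adjusted test. In the Hoxa cluster the Axin2+/GFP+ samples were all higher for Hoxa2, Hoxa3, Hoxa4, Hoxa7, Hoxa10 and Hoxa13, in the Hoxb cluster for Hoxb1, Hoxb2, Hoxb5, Hoxb6 and Hoxb7, in the Hoxc cluster for Hoxc4 and Hoxc5, and in the Hoxd cluster for Hoxd3, Hoxd4, Hoxd8, Hoxd11 and Hoxd12. Hoxb6, a trunk gene beside Hoxb7, had log2 values of 2.03, 2.75 and 2.29 in Axin2+/GFP+ cells against 1.75, 1.58 and 1.77, a change of 0.65 on the log2 scale (limma adjusted p = 0.0709). Hoxa10, a gene of the uterus and hindlimb, had values of 2.14, 2.61 and 2.04 against 1.52, 1.89 and 1.63, and a log2 change of 0.58 (limma adjusted p = 0.0885). Hoxb5 had values of 2.98, 2.81 and 2.98 against 2.46, 2.60 and 2.17, and a log2 change of 0.51 (limma adjusted p = 0.0834). In all 3 genes the gap between the sorts was narrower than the range within one of them. Hoxd8 changed by 0.13 on the log2 scale, the smallest of the 18, since its samples lay close together at 1.94 to 2.07 and 1.85 to 1.94.

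Other members varied widely among the samples of one sort. Hoxa11, a gene of the forearm and uterus, had log2 values of 2.59, 2.23 and 1.58 in Axin2+/GFP+ cells against 1.36, 1.63 and 1.56, so that Axin2+/GFP+ replicate 3 was at the level of the Axin2-/GFP- cells. Hoxc8 had values of 1.52, 2.01 and 3.05 against 1.63, 1.96 and 2.02, which gave the widest 95% interval of the 37, from -0.48 to 1.12. Hoxc9 had 2.69, 1.93 and 1.89 against 1.92, 1.42 and 1.53, and Hoxd9 had 2.32, 3.13 and 2.44 against 2.37, 2.73 and 2.18. The highest Axin2+/GFP+ sample was replicate 1 for Hoxa11 and Hoxc9, replicate 2 for Hoxd9 and replicate 3 for Hoxc8. Hoxb9, with the largest log2 change that did not pass, had values of 2.93, 3.49 and 3.35 against 2.51, 2.99 and 2.27 (limma adjusted p = 0.0909).

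**Figure D2:**
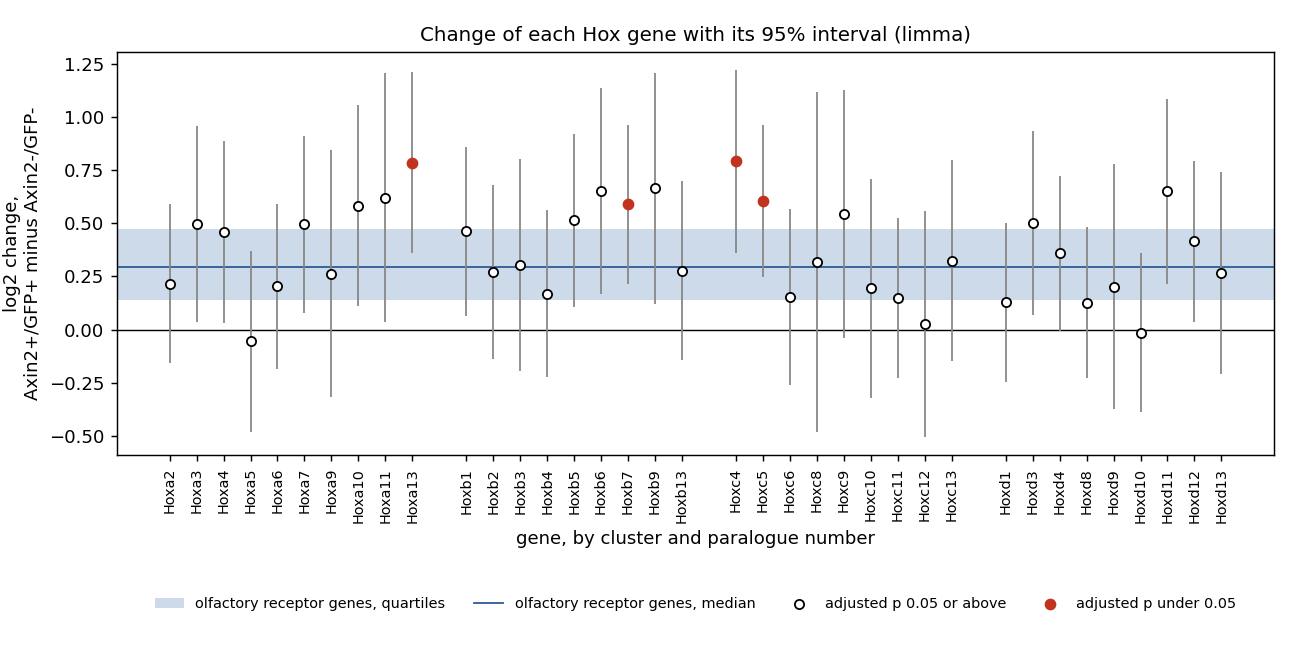
The log2 change of each Hox gene (Axin2+/GFP+ minus Axin2-/GFP-, vertical axis) is plotted by cluster and paralogue number, with grey lines for the 95% interval from limma, filled red points for genes with an adjusted p under 0.05 and open points for the rest. The blue line and band give the median (0.29) and quartiles (0.14 and 0.47) of the changes of the olfactory receptor genes, and the intervals of 35 of the 37 Hox genes include that median.

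The median change of the Hox genes was close to that of the receptor genes, but more Hox genes lay above the receptor quartiles than below. Of the 37 changes 35 were positive, the exceptions being Hoxa5 (-0.06) and Hoxd10 (-0.01). Positive changes were found in 61.7% of all genes and in 903 of the 1015 receptor genes. The median log2 change of the Hox genes was 0.32, with quartiles of 0.20 and 0.54, that of the receptor genes 0.29, with quartiles of 0.14 and 0.47, and that of all genes 0.14. Between the receptor quartiles lay 18 Hox genes, 14 lay above and 5 below. The 95% interval included the receptor median for 35 Hox genes, the exceptions being Hoxc4 and Hoxa13. By cluster the median log2 change was 0.48 for Hoxa, 0.46 for Hoxb, 0.32 for Hoxc and 0.27 for Hoxd. By position it was 0.30 for paralogues 1 to 3, 0.41 for 4 to 8 and 0.30 for 9 to 13, and Spearman's rho between paralogue number and change was 0.02 across the 37 genes.

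The size of the Hox changes depended on how the arrays were set level with each other. Median centring gave the 37 genes a median log2 change of 0.20, quantile normalization 0.21 and cyclic loess 0.14, and centring each array on its receptor genes left 0.01. The median over all genes was 0.02, 0.06, 0.01 and -0.17 under the same scalings. That of the receptor genes was 0.18, 0.11, 0.06 and -0.01, the last being near 0 by construction. Centred on the receptor genes, 20 Hox genes had positive and 17 negative changes, from -0.37 to 0.48, and limma called none (lowest adjusted p 0.105), with 2 at an unadjusted p under 0.05. The call of Hoxb7 held after quantile normalization and cyclic loess (log2 changes of 0.79 and 0.74), those of Hoxc4 and Hoxa13 after median centring (0.67 and 0.66), and that of Hoxc5 in none of the 4. Hoxb1 was called after quantile normalization (0.70, limma adjusted p = 0.0449) and cyclic loess (0.65, adjusted p = 0.0473).

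**Figure D3:**
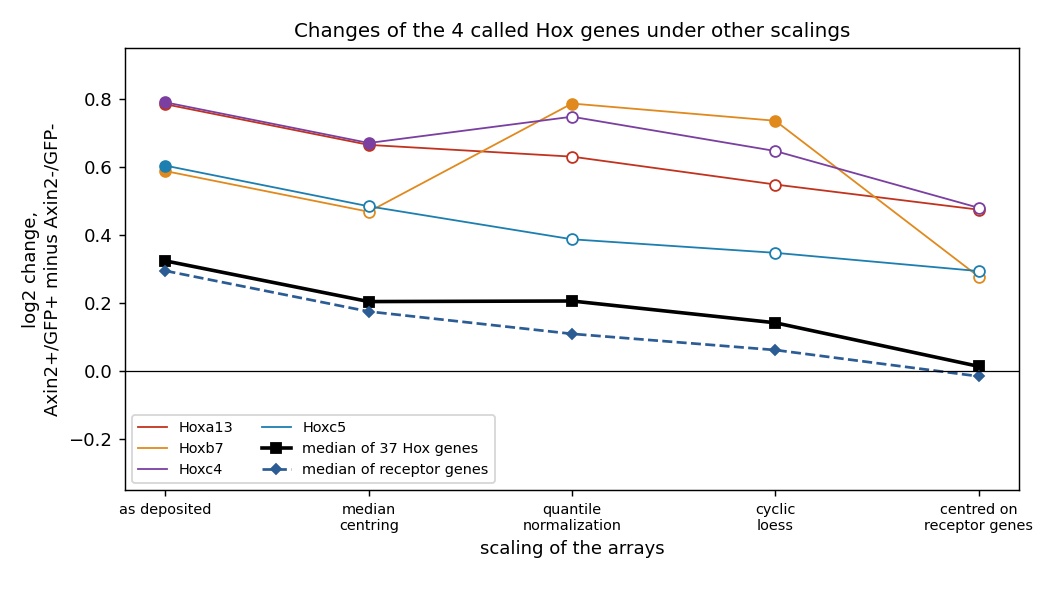
The log2 change (vertical axis) of the 4 Hox genes called on the deposited values is plotted under 5 scalings of the arrays, with filled circles where the limma adjusted p was under 0.05 and open circles elsewhere. Black squares and blue diamonds give the median change of the 37 Hox genes and of the olfactory receptor genes, 0.32 and 0.29 as deposited. Centring on the receptor genes subtracts their own shift, so their median then lies near 0 by construction (-0.01, with 0.01 for the Hox genes).

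Of 9 non-coding transcripts measured in the clusters, 2 were called, both higher in Axin2+/GFP+ cells, against 4.64% of all genes. All 9 log2 changes were positive, as were those of 61.7% of all genes and of 903 of the 1015 receptor genes. Mir615, in the Hoxc cluster, was the one above the background level in every sample, with log2 values of 4.88, 4.61 and 5.18 in Axin2+/GFP+ cells and 4.57, 4.68 and 5.03 in Axin2-/GFP- cells. Its groups overlapped, and its log2 change of 0.13 did not pass (limma adjusted p = 0.672). Mir196b, in the Hoxa cluster, had values of 3.02, 2.65 and 2.81 against 2.20, 2.28 and 2.20, a log2 change of 0.60 (SE 0.17, limma adjusted p = 0.0463). Hoxaas2, an antisense transcript of the Hoxa cluster, had values of 2.14, 2.56 and 2.45 against 1.88, 1.60 and 1.76, a log2 change of 0.64 (SE 0.18, limma adjusted p = 0.0481). Both stayed under the background level in every sample, and both calls ended in 11 of 15 other settings, including without any single Axin2-/GFP- replicate, where the log2 changes were 0.58 to 0.62 for Mir196b and 0.56 to 0.71 for Hoxaas2. The Mir196b call also ended without Axin2+/GFP+ replicate 1 or 3 (log2 changes of 0.50 and 0.60), and the Hoxaas2 call without Axin2+/GFP+ replicate 2 or 3 (0.55 and 0.60).

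The genes for the other miRNA with the Mir196b seed, Mir196a-1 and Mir196a-2, had log2 changes of 0.05 and 0.22 (limma adjusted p = 0.885 and 0.449). Mir10a had values of 1.58, 1.51 and 3.51 against 1.27, 1.49 and 1.003, so that 1 Axin2+/GFP+ sample carried most of its log2 change of 0.95 (limma adjusted p = 0.196). Mir10b, which shares its seed, was dim in all samples, at 0.79 to 1.69, with a log2 change of 0.47 (adjusted p = 0.147). Hottip, a transcript from the posterior end of the Hoxa cluster, had a log2 change of 0.41 and Hoxd3os1, antisense to Hoxd3, of 0.58 (adjusted p = 0.161 and 0.101). The features carry the names of miRNA genes, and whether they read the mature RNA is not known.

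Among 68 measured genes known to act with, on or beside the Hox clusters, 4 were higher and 9 lower in Axin2+/GFP+ cells (limma adjusted p under 0.05), against 4.64% and 11.4% of all genes. Together with 19 homeobox genes of the skull the counts were 7 and 9 of 87. Without Axin2-/GFP- replicate 1 or 2 the counts over these 87 were 1 and 5, and without replicate 3 they were 2 and 6. The homeodomain cofactors of the TALE family, Pbx, Meis and Pknox proteins that bind DNA together with Hox proteins, had none of 8 members called in either direction, and none at an unadjusted p under 0.05 in limma against 1 by the methods' t-test. Pbx2 and Meis3 were above the background level in all samples. Meis3 had log2 values of 3.88, 3.48 and 3.81 in Axin2+/GFP+ cells and 3.43, 3.42 and 3.60 in Axin2-/GFP- cells, which overlap, and Pbx2 had a log2 change of 0.02 (limma adjusted p = 0.970). Meis1, a cofactor that blood precursors use with Hoxa9, had a log2 change of -0.24 (SE 0.16, limma adjusted p = 0.314). Centred on the receptor genes, which lowers the change of every gene, it was -0.55 with a limma adjusted p of 0.0488. That was the only 1 of 15 other settings in which Meis1 was called.

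The chromatin regulators that keep Hox genes on or off held most of the genes that were lower. Of 10 trithorax and MLL complex genes, 3 were lower and none higher, against 11.4% and 4.64% of all genes. Kmt2a, the methyltransferase MLL1 that maintains active Hox genes, had log2 values of 4.12, 4.78 and 4.50 in Axin2+/GFP+ cells and 5.95, 6.06 and 6.44 in Axin2-/GFP- cells, which differ by -1.68 on the log2 scale (SE 0.22, limma adjusted p = 0.00208). Aff1, a partner of MLL fusions, had a log2 change of -2.01 and Dot1l, a histone H3 methyltransferase, of -0.89 (limma adjusted p = 0.00357 and 0.0394).

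Of 13 Polycomb genes, which keep Hox genes silent, 5 were lower and 1 higher, against 11.4% and 4.64% of all genes. Ezh2, the catalytic subunit of Polycomb repressive complex 2, had values of 3.49, 4.51 and 5.07 against 6.68, 6.63 and 7.07, and its log2 change was -2.44 (SE 0.36, limma adjusted p = 0.00333). Its partner subunits Suz12 and Eed had log2 changes of -1.77 and -1.29, and Rnf2 and Bmi1 of Polycomb repressive complex 1 of -1.64 and -1.02, all with separate groups. Cbx8, a reader subunit of complex 1, went the other way, with a log2 change of 0.97 (SE 0.18, limma adjusted p = 0.00920). Cbx8 was above the background level in 1 Axin2+/GFP+ sample and in no Axin2-/GFP- sample, and Bmi1 in 1 Axin2-/GFP- sample only. These regulators are also used in dividing and immature blood cells, and the B lineage genes given above were lower in the same samples. Their part in these differences was not tested. Suz12 was called in all 16 other settings run for it, Kmt2a, Aff1, Ezh2 and Cbx8 in all but the methods' t-test, and Eed in all but the mean of a gene's features. The Dot1l call ended without any single sample except Axin2+/GFP+ replicate 3 (log2 changes of -0.74 to -0.98), the Rnf2 call without any single Axin2-/GFP- replicate (-1.55 to -1.72), and the Bmi1 call without Axin2+/GFP+ replicate 1 or 3 or Axin2-/GFP- replicate 1 or 2 (-0.76 to -1.14).

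Of the other homeobox genes that switch on Hox clusters or resemble them, the Cdx and ParaHox genes, none of 6 was called. At an unadjusted p under 0.05, 2 were higher by limma and by the methods' t-test, against 16.3% and 14.8% of all genes. Cdx1 had a log2 change of 0.63 (limma adjusted p = 0.0613). The genes flanking the clusters gave 1 call of 12, which was lower, against 11.4% of all genes called lower. It was Cbx5, a heterochromatin protein beside the Hoxc cluster, with a log2 change of -0.82 (limma adjusted p = 0.0314). Evx2, the homeobox gene at the end of the Hoxd cluster, was above the background level in all samples, with values of 3.93, 3.75 and 3.50 against 3.01, 3.13 and 3.37, and had a log2 change of 0.55 (limma adjusted p = 0.0791). In the retinoic acid pathway, which induces Hox genes in the embryo, 1 of 15 genes was called, against 4.64% of all genes called higher. It was the retinoic acid binding protein Crabp2, with a log2 change of 0.98 (limma adjusted p = 0.0163). Crabp2 was above the background level in 1 Axin2+/GFP+ sample and in no Axin2-/GFP- sample. Of 4 genes whose proteins are known to meet Hox proteins or their targets, 2 were called higher, against 4.64% of all genes. They were the myeloid factor Cebpa and the homeobox gene Six2, with log2 changes of 0.76 and 0.94 (limma adjusted p = 0.0293 and 0.0386). The Cbx5, Cebpa and Six2 calls all ended without Axin2+/GFP+ replicate 1 or 2 or without any single Axin2-/GFP- replicate (log2 changes of -0.65 to -0.87, 0.67 to 0.78 and 0.73 to 0.98), and the Crabp2 call without Axin2-/GFP- replicate 1 or 2 (0.96 and 0.89).

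Homeobox genes known for skull and jaw development gave a comparison with a family that head mesenchyme does use. Of 19 measured, 5 were above the background level in all Axin2+/GFP+ samples and 6 in all Axin2-/GFP- samples. This is 26.3% and 31.6% of that list, against 8.11% and 13.5% of the Hox genes and 27.8% and 42.0% of all genes. The difference between the lists was not tested. Dlx5, a bone-forming cell factor, had log2 values of 4.995, 5.56 and 4.71 in Axin2+/GFP+ cells and 4.25, 4.04 and 4.002 in Axin2-/GFP- cells, with no overlap, and rose by a log2 change of 0.99 (SE 0.23, limma adjusted p = 0.0237). Pitx1 and Alx4 were also called, with log2 changes of 0.68 and 0.84 (limma adjusted p = 0.0462 and 0.0464). These are 3 calls among 19 genes, where 4.64% of all genes were called higher. Pitx1 was above the background level in 1 Axin2+/GFP+ sample and in no Axin2-/GFP- sample, and Alx4 in 2 and 1. The median log2 change of the 19 genes was 0.52, against 0.32 for the Hox genes, 0.29 for the receptor genes and 0.14 for all genes. The Pitx1 and Alx4 calls ended under all 4 other scalings (log2 changes of 0.37 to 0.60 and 0.53 to 0.88). The Dlx5 call ended with receptor centring (0.68) and held under the other scalings. The Dlx5 call ended without any single Axin2-/GFP- replicate (log2 changes of 0.94 to 1.07), the Pitx1 call without these and without Axin2+/GFP+ replicate 1 or 2 (0.52 to 0.71), and the Alx4 call without these and without Axin2+/GFP+ replicate 2 or 3 (0.63 to 0.94).

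**Figure D4:**
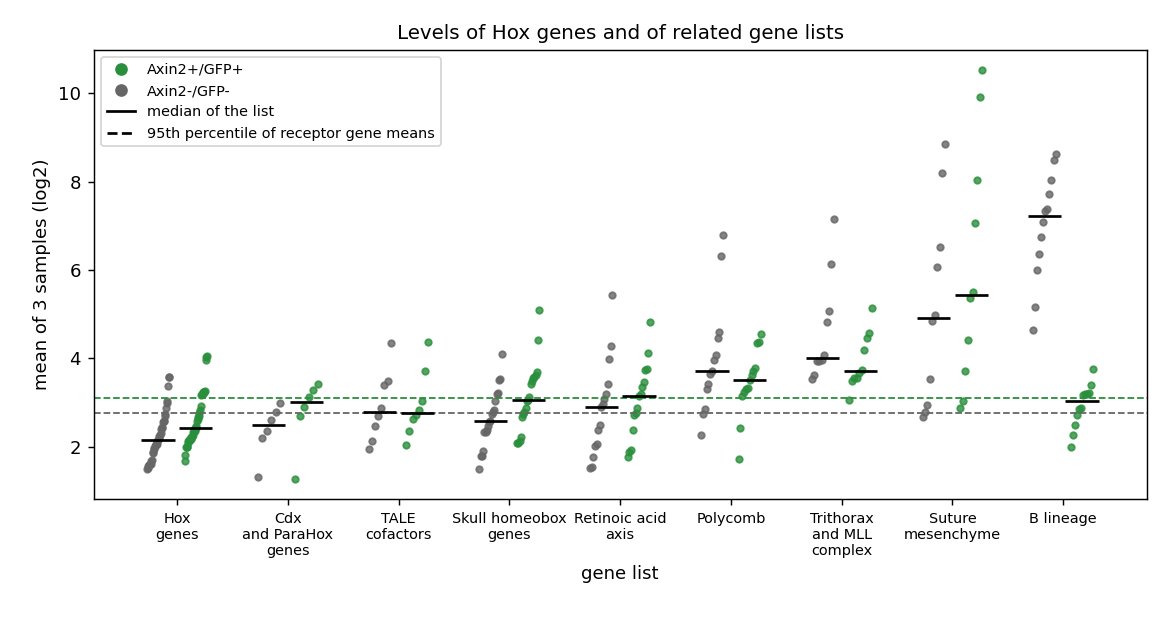
The mean log2 value over 3 samples is plotted for each gene of 9 lists, grey for Axin2-/GFP- and green for Axin2+/GFP+, with a black line for the median of each list and dashed lines for the 95th percentile of the olfactory receptor gene means. The Hox medians (2.43 in Axin2+/GFP+ and 2.15 in Axin2-/GFP-) lie under the dashed lines, and the B lineage genes show the largest step between the sorts, from a median of 7.22 to 3.03.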

How the data were processed

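RNA of 3 Axin2+/GFP+ and 3 Axin2-/GFP- samples was read on Affymetrix whole-transcript arrays, and the authors deposited log2 intensities for each feature of the array. RMA, which corrects, summarises and logs the probe signals, and R 3.2.1 are named in the notes that the submitters gave on processing. The summary level and annotation version were not given in the sources used here. All 6 columns were matched to a sample, and 0 were left over.

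Names came from the probe table of the platform. Of 35557 features, 21789 carry 1 gene symbol, 1621 several and 12147 are unnamed here. Features with several symbols were left out. A gene with several features (999 of 19938) was read by the brightest, and all 37 Hox symbols were matched by gene identifier to RefSeq (GRCm38.p6). Promoter and miRNA sequences came from the same source.

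The sorts were compared gene by gene in R 4.3.3 with limma 3.58.1, using lmFit and then eBayes, and p-values were adjusted by the Benjamini-Hochberg method over all genes with a threshold of 0.05. The procedure was tested on simulated data. Genes to be named were the Hox genes called or above the 95th percentile of the olfactory receptor genes (symbols of Olfr and a number) in all 3 samples of a sort, and of other lists the called members and up to 4 more with the smallest p. Meis3, Pbx2, Mir10a and the other Hox genes given by sample were described after their values were seen. The members, lists and tests were chosen with earlier results of these data known. Alternatives were 4 other scalings, limma with a trend, array weights, the methods' t-test (two-sided Student's test), a filter on dim genes, the mean of a gene's features, the replicate number as a block, other background rules and leaving out each sample, where limma took the spread from the samples that remained. The p-values reflect only how these samples vary.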

Additional observations from a re-analysis of the deposited data

How the results depend on the processing

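No Hox gene was called lower in any setting. The count called higher was 4 on the deposited values, 5 with array weights or the mean of a gene's features, 3 with a filter on dim genes (10 Hox genes pass it) or limma with a trend, 2 under median centring, quantile normalization or cyclic loess, 1 by the methods' t-test and 0 with arrays centred on receptor genes. Leaving out 1 sample gave 0 to 4 calls and a median log2 change of the 37 genes of 0.33 to 0.39, against 0.32 with all samples. That median was 0.014 with receptor centring, 0.142 with cyclic loess, 0.205 with median centring and 0.206 with quantile normalization.

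Above the background level were 3 Hox genes in Axin2+/GFP+ and 5 in Axin2-/GFP- cells under every scaling and with vomeronasal receptor genes added, 0 and 0 at the 99th percentile, 10 and 6 by group means, and 3 to 5 and 5 without 1 sample. Of the 87 related and skull homeobox genes, 7 higher and 9 lower became 3 and 12 with median centring, 1 and 15 with receptor centring and 0 and 2 by the methods' t-test, and 1 to 8 and 5 to 8 without 1 sample.

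With the replicate number as a block, 2 Hox genes were called: Hoxc5 (0.60, limma adjusted p = 0.0686) and Hoxb7 (0.59, adjusted p = 0.0730) ended, and the 87 related and skull homeobox genes had 7 and 9 calls. Samples with the same number had deviations that correlated at 0.03, 0.01 and 0.05 across genes, and Axin2+/GFP+ replicate 2 did not correlate best with its own number, so the numbers were not taken to pair the samples.

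Directions turned for genes near 0. Centred on the receptor genes, the log2 change was -0.11 for Hoxa6, -0.16 for Hoxc6 and -0.058 for Pbx3. Without 1 sample the log2 change of Hoxa5 ranged from -0.187 to 0.018, above 0 without Axin2+/GFP+ replicate 1 or Axin2-/GFP- replicate 2 or 3, and that of Hoxd10 from -0.061 to 0.056, above 0 without Axin2+/GFP+ replicate 3 or Axin2-/GFP- replicate 1.

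With 3 samples a sort, intervals of about 0.42 to each side leave changes of this size around the receptor median undetermined, and low signal limits what the values say of RNA.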
